A study of Mus musculus with 6 samples.

Results

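The miR-99/100 and miR-125 families were examined in exosomes released by mouse macrophages. The members were the mature 5p strands listed in the deposited count table as mmu-miR-99a-5p, mmu-miR-99b-5p, mmu-miR-100-5p, mmu-miR-125a-5p and mmu-miR-125b-5p, chosen by name, with the entry of the highest total count kept where a name had more than 1 entry. All 5 were present, 5 of 598 miRNA names in all. The exosomes came from RAW264.7 cells, an established mouse macrophage line, and each group held 3 small RNA libraries. M0-exo came from untreated cells cultured for 24 h. M2-exo came from cells given IL-4 and IL-13 (20 ng/mL of each cytokine) over 24 h, cytokines that polarize macrophages toward the M2 state, and both groups were then moved to serum-free medium for collection. All libraries carry the batch label 1 and come from a single cell line, and the labels do not say whether replicates were separate cultures.

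A miRNA is cut from a hairpin precursor whose arms give a 5p and a 3p strand, and the strand kept in the silencing complex pairs with target mRNAs mainly through its seed, bases 2 to 8. The miR-99/100 family is known for restraining mTOR and insulin-like growth factor signalling, and the miR-125 family for roles in haematopoiesis and in macrophage activation. Their hairpins lie beside let-7 hairpins in clusters that are conserved in animals and can be transcribed together.

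The 5 sequences are shown because the families are defined by their seeds, and because some of them differ so little that reads could be assigned to the wrong name. Capitals mark the seed, and each sequence in the deposited table equalled the mature sequence in RefSeq (GRCm38.p6) for 5 of 5 members. The miR-99/100 seed was shared by 3 names in the table, all of them members:
mmu-miR-99a-5p: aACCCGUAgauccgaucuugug
mmu-miR-99b-5p: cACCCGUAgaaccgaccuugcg
mmu-miR-100-5p: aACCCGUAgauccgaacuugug
The miR-125 seed was shared by 3 names, the members of that family and mmu-miR-351-5p, a rodent relative:
mmu-miR-125a-5p: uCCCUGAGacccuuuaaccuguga
mmu-miR-125b-5p: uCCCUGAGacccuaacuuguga
mmu-miR-351-5p: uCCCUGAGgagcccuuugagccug

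Counted from 1 at the 5′ end of miR-99a-5p, miR-100-5p differed from it by the single substitution U16A. miR-99b-5p differed from miR-99a-5p by 4 substitutions, A1C, U11A, U16C and U21C. miR-125a-5p (24 bases) and miR-125b-5p (22 bases) shared their leading 13 bases, and miR-351-5p shared the leading 8 bases with each of them. The share of G and C was 63.6% in miR-99b-5p and 50% in the other 4 members.

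The table gives no coordinates, and the submitters' processing notes name the mm39 build, so the positions here are those of the RefSeq mature sequences in GRCm38.p6. On chromosome 16, Mir99a, Mirlet7c-1 and Mir125b-2 lay on the plus strand between 77598940 and 77646339, in introns of the noncoding gene Mir99ahg. On chromosome 9, Mir100, Mirlet7a-2 and Mir125b-1 lay on the plus strand between 41531437 and 41582001, in introns of the noncoding gene 3110039I08Rik. On chromosome 17, Mir99b, Mirlet7e and Mir125a lay on the plus strand within 683 bases, from 17830194 to 17830876, inside the protein-coding gene Spaca6, where the miR-125a-5p sequence overlapped an annotated exon and miR-99b-5p an intron. miR-125b-5p can come from the hairpins on chromosomes 9 and 16, and the table listed 6310 reads for Mir125b-1 and 6305 for Mir125b-2, so its reads cannot be assigned to either cluster. The same holds for let-7a-5p and let-7c-5p, which also have further hairpins.

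Depth was 1453348, 1155464 and 863194 counts in M0-exo replicates 1, 2 and 3, against 937317, 860204 and 969974 in the M2-exo replicates. The 5 members together took 0.646%, 0.712% and 0.672% of the counts in M0-exo against 0.765%, 0.786% and 0.743% in M2-exo, while the 9 let-7 guides (8 let-7 5p strands and miR-98-5p) accounted for 74.5% to 77.4% of each library. Levels are given as scaled CPM, counts per 1000000 counts after TMM scaling in edgeR, which sets most miRNAs to be equal between libraries on average. Each mature miRNA yields 1 read of nearly its full length, so levels of different members were compared without a length correction, although adapter ligation is known to favour some sequences over others.

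The order of the members by count was the same in 6 of 6 libraries: miR-99a-5p, miR-125b-5p, miR-99b-5p, miR-125a-5p and miR-100-5p. miR-99a-5p supplied between 68.6% and 74.3% of the members' counts and miR-100-5p between 0.562% and 1.24%. Within a library the count of miR-99a-5p was 4.33 to 5.70 times that of miR-125b-5p, and that of miR-99b-5p was 2.73 to 4.29 times that of miR-125a-5p. The narrowest step was between miR-125b-5p and miR-99b-5p, with a ratio of 1.15 to 1.65, above 1 in all 6 libraries. By total count over all libraries the members ranked 21, 46, 57, 89 and 132 of 598.

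**Figure D1:**
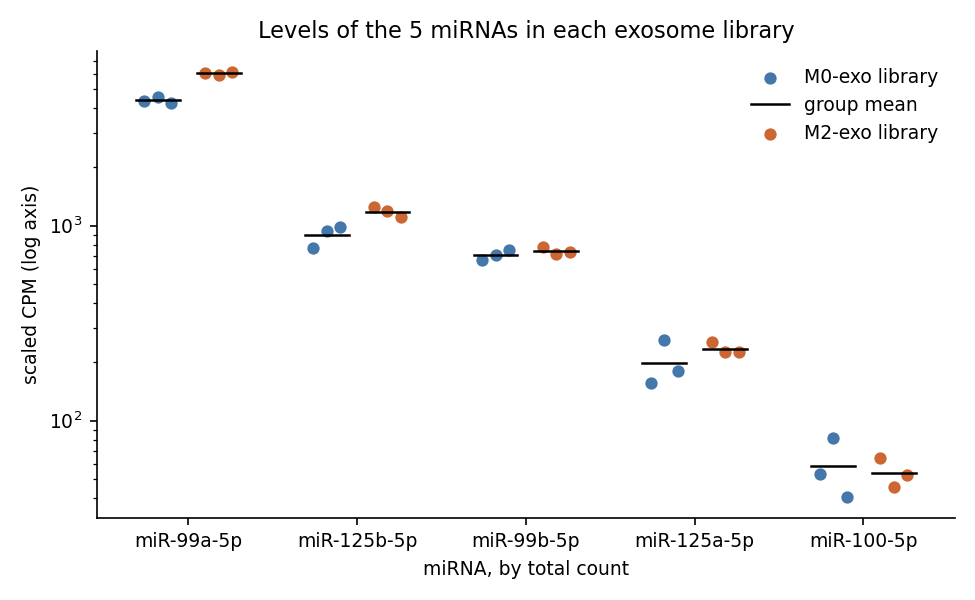
Scaled CPM of each member (log axis) in the 3 M0-exo libraries (blue) and the 3 M2-exo libraries (orange), with black lines at the group means. The M2-exo libraries of miR-99a-5p (5926 to 6128) and miR-125b-5p (1102 to 1240) lie above all M0-exo libraries of the same miRNA, while the groups of the other 3 members overlap; in CPM without scaling, those of miR-125b-5p overlap and those of miR-99b-5p do not, with M2-exo below.

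miR-99a-5p, the most abundant member, had 6825, 5731 and 3974 counts in M0-exo against 5182, 4944 and 5359 in M2-exo, which is 4370, 4577 and 4273 scaled CPM against 6066, 5926 and 6128. Every M2-exo library was above every M0-exo library. The mean rose from 4406 ± 155 to 6040 ± 103 scaled CPM (SD, n = 3 each), a log2 fold change of 0.45 (standard error, SE, 0.09, 95% interval 0.27 to 0.64, adjusted p = 3.04e-05 from edgeR). The size was below the study's threshold of 0.5. It was 0.24 (adjusted p = 0.111) with no scaling beyond the library total and 0.21 (adjusted p = 0.629) with limma on log2(RPM + 1), within a range of 8e-09 to 0.629 for the adjusted p-value over the alternatives. In pooled exosome RNA, more exosomes carrying a miRNA and more copies per exosome cannot be told apart.

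miR-125b-5p, a regulator of macrophage activation, had 1198, 1181 and 917 counts in M0-exo against 1059, 991 and 964 in M2-exo, or 767, 943 and 986 scaled CPM against 1240, 1188 and 1102. The groups did not overlap, although M0-exo replicate 1 lay well below the other M0-exo libraries, and they did overlap in CPM without scaling (824 to 1062 in M0-exo, 994 to 1152 in M2-exo). The mean rose from 899 ± 116 to 1177 ± 69.4 scaled CPM (SD, n = 3 each), a log2 fold change of 0.39 (SE 0.12, 95% interval 0.15 to 0.63, adjusted p = 0.0226 from edgeR). The adjusted p-value from edgeR was above 0.05 when any of 4 libraries was left out, with the fold change in the same direction: 0.29 without M0-exo replicate 1 (adjusted p = 0.194), 0.43 without M0-exo replicate 2 (0.0542), 0.35 without M2-exo replicate 1 (0.153) and 0.38 without M2-exo replicate 2 (0.121). The adjusted p-value ranged from 0.00361 to 0.734 over all alternatives.

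miR-99b-5p, from the chromosome 17 cluster, had 667, 707 and 753 scaled CPM in M0-exo against 775, 719 and 736 in M2-exo. The groups overlapped, and the log2 fold change was 0.07 (standard error 0.14, 95% interval -0.20 to 0.33, adjusted p = 0.82 from edgeR). It was -0.15 with no scaling beyond the library total, -0.18 with limma on log2(RPM + 1) and, in the other direction, 0.40 with an offset for GC content (adjusted p = 0.0314, with a range of 0.0314 to 1 over the alternatives). In CPM without scaling the groups did not overlap, with 717, 766 and 811 in M0-exo and lower values of 706, 698 and 664 in M2-exo.

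miR-125a-5p, from the same cluster, had 156, 259 and 181 scaled CPM in M0-exo against 253, 224 and 225 in M2-exo. The M0-exo libraries spanned the M2-exo values, with replicate 2 of M0-exo the highest of all 6. The log2 fold change was 0.24 (standard error 0.19, 95% interval -0.14 to 0.62, adjusted p = 0.516 from edgeR), and it ranged from 0.09 without M0-exo replicate 1 to 0.48 without M0-exo replicate 2. It was 0.02 with no scaling beyond the library total and 0.02 with limma on log2(RPM + 1).

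miR-100-5p, the scarcest member, had 83, 102 and 38 counts in M0-exo against 55, 38 and 46 in M2-exo, which is 53.1, 81.5 and 40.9 scaled CPM against 64.4, 45.6 and 52.6. The groups overlapped, and the log2 fold change of -0.11 had a standard error of 0.37, so a change of the size seen for miR-99a-5p was not detectable against this error. Its direction rested on M0-exo replicate 2, without which the log2 fold change was 0.20. Its count was 0.769% to 1.78% of that of miR-99a-5p, from which it differs by 1 base, and whether misread miR-99a-5p contributed to it was not tested.

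By the study's rule, a log2 fold change of 0.5 or more in size with an unadjusted p-value below 0.05, edgeR called 0 of the 5 members, against 60 of all 598 miRNAs (10%). DESeq2 and limma also called 0 members by this rule. Without the fold threshold, 2 of the 5, miR-99a-5p and miR-125b-5p, had unadjusted and adjusted p-values below 0.05, both higher in M2-exo. Over all 598 miRNAs, an adjusted p-value below 0.05 was found for 53 (8.86%), of which 25 (4.18%) were higher. These 25 higher and the 28 lower were all among the 241 miRNAs with a mean of at least 10 counts, as the members were. By the study's rule, 18 of the 241 were higher and 34 lower. The groups of scaled CPM did not overlap, with M2-exo above, for 2 of the 5 members and for 57 of all 598 miRNAs (9.53%). The median log2 fold change of the 5 members was 0.24, against -0.01 for the 241 miRNAs with a mean of at least 10 counts.

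The size of these differences moved with the scaling. With no scaling beyond the library total, the median of the 241 miRNAs shifted by -0.21 on the log2 scale, and neither miR-99a-5p nor miR-125b-5p (log2 fold change 0.17, adjusted p = 0.533 from edgeR) then had an adjusted p-value below 0.05. Relative to that median they were 0.46 and 0.39 higher, against 0.46 and 0.40 with TMM scaling. Another scaling of the libraries shifts all miRNAs by nearly the same amount. The distance from the median could therefore hardly change, and its likeness in the 2 settings is no further evidence of a difference. With the let-7 family left out of the table and of the scaling, miR-99a-5p reached a log2 fold change of 0.51 and passed the study's rule. The adjusted p-value of miR-99a-5p was below 0.05 in 12 of 14 alternatives.

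**Figure D2:**
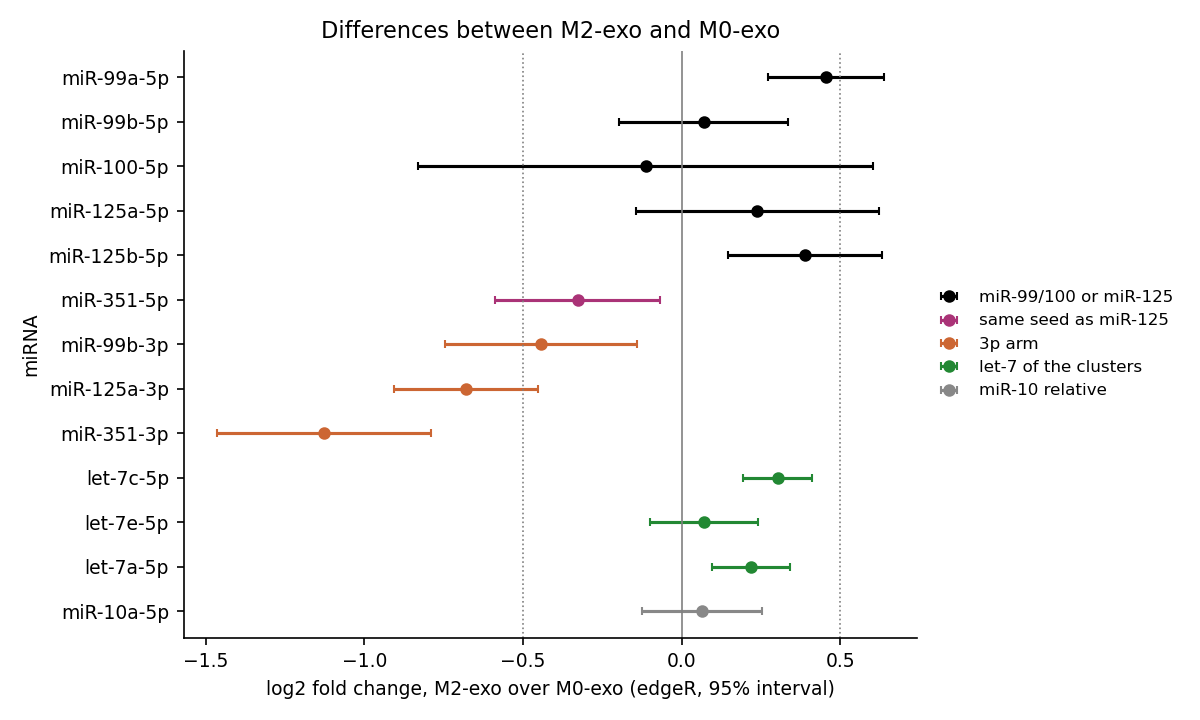
Log2 fold change of M2-exo over M0-exo from edgeR with TMM scaling (points) and its 95% interval (bars) for the 5 members, miR-351-5p, the 3p arms, the let-7 miRNAs of the clusters and miR-10a-5p; dotted lines mark the study's threshold of 0.5 in either direction. The intervals of miR-99a-5p and miR-125b-5p lie above 0, those of the other 3 members span it (miR-99b-5p falls below 0 with no scaling beyond the library total), and those of miR-125a-3p, miR-99b-3p, miR-351-3p and miR-351-5p lie below it.

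Ratios of counts within a library do not depend on the scaling of libraries, although they can move with an offset for GC content where the miRNAs differ in composition, and 12 were compared between groups by a two-sided exact permutation test, for which 20 arrangements of 3 against 3 libraries allow no p below 0.1. Between the miR-99 members, the count of miR-99b-5p was 0.153, 0.154 and 0.176 of that of miR-99a-5p in M0-exo against 0.128, 0.121 and 0.120 in M2-exo. All M2-exo libraries were below all M0-exo libraries, and the log2 ratio fell by 0.39 (exact permutation p = 0.1, adjusted over the 12 ratios 0.24) for these relatives with the same seed. As a difference of edgeR log2 fold changes it was -0.39, and -0.06 with an offset for GC content (63.6% G and C in miR-99b-5p, 50% in miR-99a-5p). The ratio of miR-125a-5p to miR-125b-5p was 0.203, 0.274 and 0.183 in M0-exo against 0.204, 0.189 and 0.204 in M2-exo, with overlap (exact permutation p = 0.9).

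In the chromosome 16 cluster, the count of miR-99a-5p was 0.0154, 0.0159 and 0.0149 of that of let-7c-5p in M0-exo against 0.0167, 0.0177 and 0.0169 in M2-exo. The groups did not overlap, and the log2 ratio was 0.15 higher in M2-exo (exact permutation p = 0.1, adjusted 0.24), or 0.36 as a difference of edgeR log2 fold changes with an offset for GC content. let-7c-5p itself, the most abundant miRNA in the table, had a log2 fold change of 0.30 (SE 0.05, adjusted p = 1.31e-06 from edgeR), which was 0.08 with no scaling beyond the library total and 0.10 under an offset for GC content. It was past an adjusted p-value of 0.05 in 10 of 13 alternatives. The ratio of miR-125b-5p to let-7c-5p was 0.00270, 0.00328 and 0.00344 in M0-exo against 0.00342, 0.00355 and 0.00305 in M2-exo, with overlap (exact permutation p = 0.6). The difference of their edgeR log2 fold changes was 0.09, and 0.29 with the GC offset.

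In the compact chromosome 17 cluster, the count of miR-99b-5p was 0.0843, 0.0922 and 0.0963 of that of let-7e-5p in M0-exo against 0.0933, 0.0871 and 0.0919 in M2-exo. The M2-exo values lay within the M0-exo range, and the mean log2 ratios were -3.46 in both groups (SD 0.10 and 0.05, n = 3 each; exact permutation p = 1). With an offset for GC content the difference of their edgeR log2 fold changes was 0.52, against -0.0018 without it. let-7e-5p had a log2 fold change of 0.07 (SE 0.09), which turned to -0.15 with no scaling beyond the library total, as that of miR-99b-5p did. The ratio of miR-125a-5p to let-7e-5p was 0.0196, 0.0338 and 0.0231 in M0-exo against 0.0304, 0.0271 and 0.0281 in M2-exo, with overlap (exact permutation p = 0.5), and that of miR-99b-5p to miR-125a-5p was 4.29, 2.73 and 4.17 against 3.06, 3.21 and 3.27 (exact permutation p = 0.4). As differences of edgeR log2 fold changes these 2 ratios were 0.17 and -0.17. Under the GC offset they became 0.37 and 0.15, so the direction of the latter changed.

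For the chromosome 9 cluster, miR-100-5p amounted to between 0.000444 and 0.000942 of the count of let-7a-5p in M0-exo and between 0.000459 and 0.000589 in M2-exo, with overlap (exact permutation p = 0.7). The difference of their edgeR log2 fold changes was -0.33, and -0.08 with the GC offset. The ratio of miR-99a-5p to miR-100-5p was 82.2, 56.2 and 105 in M0-exo against 94.2, 130 and 117 in M2-exo, also with overlap (exact permutation p = 0.2). Of the 3 let-7 miRNAs of the clusters, let-7c-5p and let-7a-5p were higher in M2-exo at an adjusted p-value below 0.05, against 25 of all 598 miRNAs (4.18%), and 0 of 3 passed the study's fold threshold in edgeR. The let-7a-5p value of 0.22 (adjusted p = 0.00849 from edgeR) was -0.0001 with no scaling beyond the library total. With a library left out, its log2 fold change was 0.18 without M0-exo replicate 2 (adjusted p = 0.09), 0.23 without M0-exo replicate 3 (0.0886), 0.19 without M2-exo replicate 1 (0.129) and 0.19 without M2-exo replicate 3 (0.113), close in size but above an adjusted p-value of 0.05. Its adjusted p-value had a range of 0.000497 to 1 over the alternatives.

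**Figure D3:**
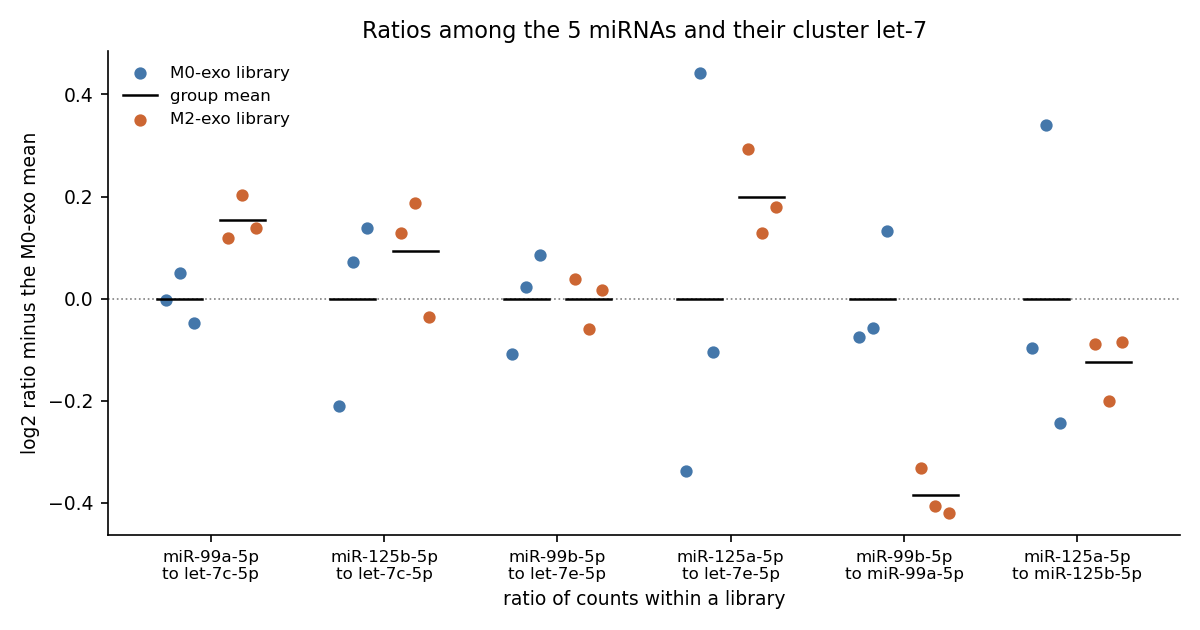
Log2 ratio of the counts of 6 pairs of miRNAs within each library, shown minus the M0-exo mean of that pair, for M0-exo (blue) and M2-exo (orange) libraries with black lines at the group means. miR-99a-5p to let-7c-5p (0.15 higher) and miR-99b-5p to miR-99a-5p (difference of -0.39) are the pairs plotted whose groups do not overlap.

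Of the other strands of the member hairpins, 2 were lower in M2-exo at an adjusted p-value below 0.05 in edgeR, miR-125a-3p and miR-99b-3p. Of all 598 miRNAs, 28 (4.68%) were lower at that threshold, and miR-99b-3p passed it in 3 of 14 alternatives. Of the 6 names of these 3p strands, 5 were in the table and miR-100-3p had no entry in it. The abundant 3p strands and those of the seed relative are shown with the seed in capitals, since each arm of a hairpin carries a seed of its own:
mmu-miR-125a-3p: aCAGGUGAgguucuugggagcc
mmu-miR-99b-3p: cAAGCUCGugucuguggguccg
mmu-miR-351-3p: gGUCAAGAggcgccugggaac

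miR-125a-3p had 2446, 2564 and 1856 counts in M0-exo against 1064, 1004 and 920 in M2-exo, or 1566, 2048 and 1996 scaled CPM against 1246, 1203 and 1052. Every M2-exo library was below every M0-exo library. The mean fell from 1870 ± 264 to 1167 ± 102 scaled CPM (SD, n = 3 each), a log2 fold change of -0.68 (SE 0.12, 95% interval -0.91 to -0.45, adjusted p = 2.11e-07 from edgeR). By the study's rule, miR-125a-3p was the 1 strand called among the 5 measured other strands, and 38 of all 598 miRNAs (6.35%) were called lower. With an offset for GC content this call was lost, since the log2 fold change was -0.49 (adjusted p = 0.000354). miR-125a-3p lost an adjusted p-value below 0.05 in 1 of 14 alternatives, limma on log2(RPM + 1), where its log2 fold change was -0.92 (adjusted p = 0.182), and its lowest adjusted p-value was 3.73e-12.

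In both groups miR-125a-3p outnumbered the miR-125a-5p strand. The count of miR-125a-3p was 10.1, 7.91 and 11.0 times that of miR-125a-5p in M0-exo and 4.93, 5.37 and 4.67 times in M2-exo. The groups did not overlap, and the log2 ratio of 3p to 5p fell by 0.94, from 3.26 ± 0.25 to 2.32 ± 0.10 (SD, n = 3 each; exact permutation p = 0.1, adjusted 0.24).

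miR-99b-3p had 417, 595 and 610 scaled CPM in M0-exo against 447, 403 and 342 in M2-exo, with M0-exo replicate 1 within the M2-exo range. Its log2 fold change was -0.44 (standard error 0.15, adjusted p = 0.0466 from edgeR). The adjusted p-value was above 0.05 in 11 of 14 alternatives, with a range of 0.000792 to 0.788. Among them, the log2 fold change was -0.37 without M0-exo replicate 2 (adjusted p = 0.262), -0.35 without M0-exo replicate 3 (0.374), -0.45 without M2-exo replicate 2 (0.156) and -0.35 without M2-exo replicate 3 (0.278). With an offset for GC content it was -0.10 (0.788). In the 3 alternatives below 0.05 the fall was larger and passed the study's rule. It was -0.66 with no scaling beyond the library total (adjusted p = 0.000792 from edgeR). Without M0-exo replicate 1 it was -0.60 (0.00255), and without M2-exo replicate 1 it was -0.54 (0.0491). The log2 fold change with limma on log2(RPM + 1) was -0.68 (0.428). The 28 miRNAs lower at an adjusted p-value below 0.05 were 4.68% of all.

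Within the miR-99b hairpin, the 3p count was 0.626, 0.842 and 0.810 of the 5p count in M0-exo against 0.577, 0.560 and 0.464 in M2-exo. The groups did not overlap, and the log2 ratio fell by 0.50 (exact permutation p = 0.1, adjusted 0.24). Both strands of this hairpin have 63.6% G and C, so their ratio was nearly the same with an offset for GC content (-0.49 against -0.51 as a difference of edgeR log2 fold changes).

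The remaining 3p strands were near the limit of detection. miR-99a-3p had 29, 3 and 10 counts in M0-exo against 7, 28 and 7 in M2-exo, so miR-99a was measured almost wholly through its 5p strand. miR-125b-1-3p, which comes from the chromosome 9 hairpin alone, had 0, 13 and 6 counts against 10, 11 and 17, and its log2 fold change of 1.40 had a standard error of 1.13. miR-125b-2-3p, from the chromosome 16 hairpin alone, had 0, 1 and 0 counts against 1, 7 and 8. In scaled CPM, every M2-exo library of these miR-125b 3p strands lay above every M0-exo library, as for 57 of all 598 miRNAs (9.53%). The counts of miR-125b-1-3p overlapped, and those of miR-125b-2-3p were tied at 1 in M0-exo replicate 2 and M2-exo replicate 1. That tie became 0.80 against 1.17 scaled CPM through the library scaling alone. The pooled ratio of M2-exo to M0-exo for miR-125b-2-3p was 23.4 (exact 95% interval 3.63 to 980.2, covering counting error only), and its unadjusted p-value from edgeR was 0.115. The 3p strands of the cluster let-7 hairpins, let-7e-3p and let-7c-1-3p, had 8 counts and 1 count over all libraries.

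miR-351-5p, the seed relative of miR-125, had 608, 950 and 1097 scaled CPM in M0-exo against 610, 734 and 770 in M2-exo, with overlap (log2 fold change -0.33, standard error 0.13, adjusted p = 0.118 from edgeR). Without M0-exo replicate 1, the lowest M0-exo library for miR-351-5p, the log2 fold change was -0.54 (adjusted p = 0.00123, with a range of 0.00121 to 0.995 over the alternatives). It was -0.14 without M0-exo replicate 3 (adjusted p = 0.657) and -0.23 without M2-exo replicate 1. With no scaling beyond the library total it was -0.54 (adjusted p = 0.00121 from edgeR), and with an offset for GC content -0.01 (0.995). miR-351-5p passed the study's rule with no scaling and without M0-exo replicate 1. Its 3p strand fell from 468 ± 80.6 to 214 ± 23.8 scaled CPM (SD, n = 3 each), a log2 fold change of -1.13 (SE 0.17, adjusted p = 4e-09 from edgeR). With limma on log2(RPM + 1), 1 of 14 alternatives, it was -1.36 with an adjusted p-value of 0.101, the highest of a range that began at 6.05e-12. The 3p count was 0.617, 0.544 and 0.468 of the 5p count in M0-exo against 0.307, 0.317 and 0.290 in M2-exo. The groups did not overlap, and the log2 ratio fell by 0.83 (exact permutation p = 0.1, adjusted 0.24).

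Among the member hairpins, the ratio of 3p to 5p was lower in M2-exo without overlap for miR-125a and miR-99b, the 2 with both arms above 3 counts in every library. For miR-99a, whose 3p strand had a mean of 14 counts, the log2 ratio was 0.25 higher in M2-exo, with overlap. No ratio is given for the miR-125b hairpins, whose 5p reads cannot be assigned to either. The miR-351 hairpin is not a member, and its 3p strand was added after its values were seen. Among the 44 hairpins of the table with a mean of at least 10 counts on both arms, the groups did not overlap for 11 (25%), of which 6 fell. The median change of the log2 ratio over the 44 hairpins was -0.09, with quartiles of -0.39 and 0.63, and the ratio was lower in M2-exo for 23. From the lowest change, miR-125a ranked 3, miR-351 ranked 6, miR-99b ranked 9 and miR-99a ranked 28. The 3p strand was the more abundant in M0-exo in 19 of the 44 hairpins, miR-125a among them.

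**Figure D4:**
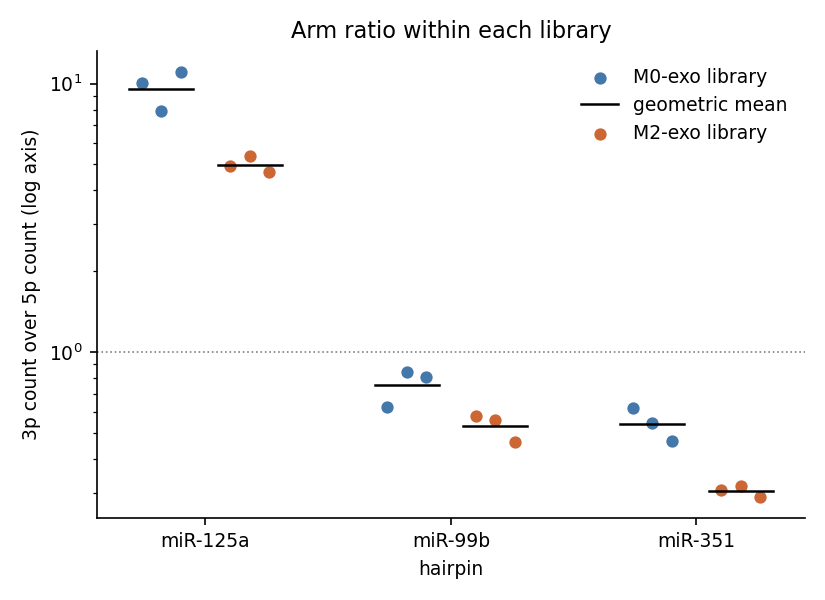
Count of the 3p strand divided by that of the 5p strand (log axis) within each M0-exo (blue) and M2-exo (orange) library for 3 hairpins, with black lines at the geometric means and a dotted line at 1. miR-125a lies above 1 in all 6 libraries, and in each hairpin the M2-exo libraries lie below the M0-exo libraries.

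Summed over the shared seed, miR-125a-5p and miR-125b-5p had 923, 1202 and 1167 scaled CPM in M0-exo against 1493, 1412 and 1328 in M2-exo, so the M2-exo libraries were the higher on this scale. In CPM without scaling the sums overlapped. There, M0-exo replicate 2 (280 of miR-125a-5p and 1022 of miR-125b-5p) was above M2-exo replicate 3 (203 and 994). With miR-351-5p added, the sums in scaled CPM were 1530, 2151 and 2263 against 2102, 2146 and 2097, and the groups overlapped. The share of this seed carried by miR-125b-5p was 50.1%, 43.8% and 43.6% in M0-exo against 59.0%, 55.4% and 52.6% in M2-exo. The share carried by miR-351-5p was 39.7%, 44.1% and 48.5% against 29.0%, 34.2% and 36.7%. These shares compare miRNAs of unlike composition, with 62.5% G and C in miR-351-5p and 50% in miR-125b-5p. With an offset for GC content, the log2 fold change of miR-351-5p was -0.01, against -0.33 without it. That of miR-125b-5p was 0.39 in both. For the miR-99/100 seed the sums were 5090, 5365 and 5066 scaled CPM in M0-exo against 6905, 6691 and 6917 in M2-exo, and they followed miR-99a-5p, which supplied most of the counts. These sums are given as descriptions, with no test.

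Base composition moved with the comparison. Among the 145 miRNAs with a mean of at least 50 counts, the median log2 fold change was 0.20 for the 34 with under 45% G and C, 0.05 for the 59 with 45% to under 55%, and -0.26 for the 52 with 55% or more. Of the strands described, miR-99b-5p, both abundant 3p strands and both miR-351 strands belong to the last of these groups. With an offset for GC content, chosen after seeing the data, the log2 fold change of miR-99b-5p was 0.40, that of miR-125a-3p -0.49, that of miR-99b-3p -0.10, that of miR-351-3p -0.69 and that of miR-351-5p -0.01. The differences between the 3p and 5p log2 fold changes under the offset were -0.73 for miR-125a, -0.49 for miR-99b and -0.68 for miR-351, against -0.92, -0.51 and -0.80 without it. miR-99a-5p, miR-125b-5p, miR-125a-5p and miR-100-5p, at 50%, lie in the middle group, where the median was near 0. The origin of the relation with base composition was not tested.

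**Figure D5:**
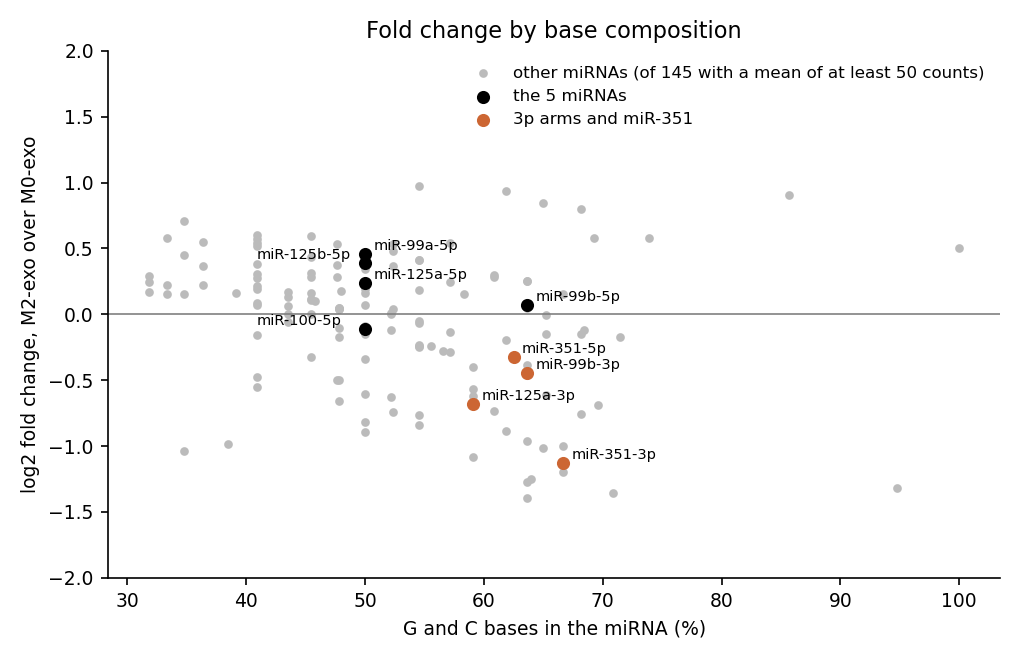
Log2 fold change of M2-exo over M0-exo from edgeR against the percentage of G and C bases for 144 of the 145 miRNAs with a mean of at least 50 counts (grey; 1 lies outside the axis range), with the 5 members in black and the 3p arms and miR-351-5p in orange. The orange points lie at 59% or more and below 0, in a range where the grey points have a median below 0; miR-99b-5p is near 0 at 63.6%, and its direction changes with the scaling.

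The profiles over the 6 libraries were compared with those of the other miRNAs among the 145, as the root mean square difference of log2 scaled CPM centred on each miRNA's mean. The nearest to miR-99a-5p were miR-24-3p (0.05), miR-15b-5p (0.07) and miR-23a-3p (0.07). The nearest to miR-99b-5p were let-7b-5p (0.04), its cluster neighbour let-7e-5p (0.06) and miR-181b-5p (0.07), all of which varied little. miR-99b-5p itself departed from its own mean by 0.07 on this measure, so these distances hardly differ from that to a flat profile. Its other cluster neighbour, miR-125a-5p, came in place 60 (0.23). The nearest to miR-125b-5p were miR-6240 (0.10), miR-29b-3p (0.13) and miR-30d-5p (0.13), and miR-99a-5p followed in place 4. The nearest to miR-125a-5p were miR-324-5p (0.15), miR-30c-5p (0.16) and miR-29b-3p (0.17), and those to miR-100-5p were miR-1198-5p (0.20), miR-25-3p (0.22) and miR-92a-3p (0.25). The larger distances of miR-125a-5p and miR-100-5p go with their lower counts.

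miR-10a-5p, which resembles the miR-99/100 family but carries a different seed, had 4123 ± 191 scaled CPM in M0-exo and 4309 ± 58.1 in M2-exo (SD, n = 3 each), with a log2 fold change of 0.06 (SE 0.10), and the groups overlapped. miR-10b-5p had 5, 8 and 12 counts against 5, 7 and 7. Thus 0 of these 2 relatives had an adjusted p-value below 0.05 in edgeR. Of the 9 let-7 guides, 6 were higher at an adjusted p-value below 0.05 and 0 passed the fold threshold in edgeR, against 25 of all 598 (4.18%), with a median log2 fold change of 0.22. With no scaling beyond the library total, with limma and with the GC offset, 0 of the 9 were higher at that threshold, and the medians were -0.0001, -0.03 and 0.01. The count was 2 of 9 without M0-exo replicate 2, M0-exo replicate 3, M2-exo replicate 1 or M2-exo replicate 3.

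Marker lists were read beside the members. All 6 myeloid miRNAs were detected, with sums of 1839, 1414 and 1353 scaled CPM in M0-exo against 1274, 1425 and 1559 in M2-exo and, as the most abundant, miR-155-5p in each M0-exo library and miR-142a-3p in each M2-exo library. By the study's rule 2 were higher (miR-223-3p and miR-21a-5p) and 1 was lower (miR-155-5p), 3 of 6 called against 10% of all miRNAs. The 4 serum or red blood cell miRNAs summed to 121, 157 and 145 scaled CPM in M0-exo against 294, 210 and 2623 in M2-exo. Of these 4, 1 was called, miR-122-5p, which was higher in M2-exo, with 40.3, 47.1 and 54.8 scaled CPM in M0-exo against 160, 128 and 2497 in M2-exo. M2-exo replicate 3 stood apart with 2184 counts of miR-122-5p, and miR-451a had at most 14 counts. Without that library the log2 fold changes were 0.44 for miR-99a-5p (adjusted p = 0.000194 from edgeR), 0.43 for miR-125b-5p (adjusted p = 0.0122), 0.27 for miR-125a-5p, 0.08 for miR-99b-5p and -0.09 for miR-100-5p. Of the 6 stromal miRNAs, 4 were in the table, with sums of 23.0 to 36.6 scaled CPM in M0-exo and 43.2 to 82.3 in M2-exo, miR-143-3p the most abundant and miR-199a-5p at 0 in 5 libraries. Of these 4, 1 was called, miR-199a-3p, which was higher in M2-exo with 7, 7 and 19 counts against 1, 0 and 0 in M0-exo. Of the 3 miRNAs linked to the IL-4 response, 2 were in the table and 0 passed the rule: miR-378a-3p had 461, 422 and 244 counts against 314, 364 and 304 (log2 fold change 0.36, adjusted p = 0.242 from edgeR), and miR-511-3p 0, 0 and 0 against 8, 1 and 1. The part of these lists in the members' values was not tested.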

How the data were processed

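Small RNA libraries (NEBNext Multiplex Small RNA kit) from 3 M0-exo and 3 M2-exo samples were used. The authors deposited read counts for each mature miRNA and precursor, together with RPM values, which are counts per 1000000 of the library total over the 638 entries. The submitters' processing notes name the mm39 build, and the aligner and the counting tool are not given in the sources used here. For each of the 598 names only the entry of highest total entered (35 names had more than 1). All names were fitted with edgeR 4.0.16 in R 4.3.3 (TMM, glmQLFit, glmQLFTest), with Benjamini-Hochberg adjustment over all 598. Ratios of counts were tested by a two-sided exact permutation test in scipy 1.17.1, and adjusted over the 12 computed. A miRNA was called where its log2 fold change was 0.5 or more in size with an unadjusted p-value below 0.05. The alternatives used DESeq2 1.42.0, limma 3.58.1 on log2(RPM + 1), other scalings, filters and entries, a replicate block, each library left out, and an offset for GC content added after seeing the data. Where nothing says that replicates were separate cultures, p-values measure only the spread between these samples, which may be technical. edgeR estimated infinite prior degrees of freedom, so each miRNA was given the spread common to miRNAs of its abundance and not its own, and a small p-value does not show that its own replicates were alike (miR-122-5p, for example). Replicates differed by more than counting noise (chi-square of 7.28 to 29.6 per degree of freedom). A count of 0 allows up to 3 counts, 2.06 to 3.49 CPM before scaling, for counting error only. The named miRNAs were the members, the other strands of their hairpins, the let-7 miRNAs of their clusters, names with a member's seed, miR-10a-5p and miR-10b-5p, the let-7 guides, the 3 miRNAs nearest in profile to each member, and the lists for myeloid, serum or red blood cell, stromal and IL-4 response miRNAs; the 3p strand of miR-351 was added after its values were seen. The members and lists were chosen with earlier results of these data known.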

Additional observations from a re-analysis of the deposited data

How the results depend on the processing

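Of 15 alternatives, 1 (the offset for GC content) was chosen after seeing the data. The number of miRNAs called ranged from 50 to 74 over the alternatives, against 60. Calls split into 22 higher and 38 lower (36.7% higher) with TMM, 10 and 63 (13.7%) with no scaling beyond the library total, and 13 and 57 (18.6%) with limma on log2(RPM + 1). Members called numbered 0, but 1 with the let-7 family left out and 2 at an adjusted p-value below 0.05 without a fold threshold. Members with an adjusted p-value below 0.05 numbered 2, but 0 with no scaling beyond the library total, 0 with limma, 3 with the GC offset, and 1 to 2 when each library was left out. DESeq2 gave no adjusted p-value for 210 names.

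Of 165 log2 fold changes of 12 single miRNAs under the alternatives, 31 lost an adjusted p-value below 0.05, 3 gained it and 9 changed sign, some of them among the 31. miR-99b-5p was -0.15 with no scaling beyond the library total and -0.18 with limma. let-7e-5p was -0.15, -0.18 and, with the GC offset, -0.13. let-7a-5p was -0.00014, -0.0282 and -0.024 in these settings. miR-100-5p was -0.31 to 0.20 when each library was left out. The cause was not tested.

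Of 84 values of the 12 ratios, which did not include the GC offset, 78 kept their direction. The other 6 came from leaving out a library. The difference in log2 ratio then ranged from -0.055 to 0.0415 for miR-99b-5p to let-7e-5p, from -0.0122 to 0.163 for miR-125b-5p to let-7c-5p, from -0.521 to 0.0221 for miR-100-5p to let-7a-5p and from -0.246 to 0.0449 for miR-125a-5p to miR-125b-5p. With the GC offset, the difference of edgeR log2 fold changes moved from -0.17 to 0.15 for miR-99b-5p to miR-125a-5p, from -0.0018 to 0.52 for miR-99b-5p to let-7e-5p and from -0.33 to -0.08 for miR-100-5p to let-7a-5p. No ratio could pass a threshold of 0.05 with 3 libraries a group.

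Same-numbered libraries were not treated as pairs: their deviations from the group means had correlations of -0.05, 0.0045 and -0.04 over 241 miRNAs, and 0 of 6 libraries correlated best with its own number. With a replicate block, 56 miRNAs were called, and 2 members had an adjusted p-value below 0.05. The block changed 1 call among the 12 miRNAs, that of miR-99b-3p (adjusted p = 0.0593 from edgeR). miR-100-5p and the 3p strands of miR-99a and miR-125b had few counts.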
